A study of Mus musculus with 4 samples.

Results

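Transcripts of 10 genes whose proteins carry a thioredoxin fold were compared between RNA recovered with an antibody to CUGBP1 and RNA recovered with normal IgG. The genes were *P4hb*, *Pdia3*, *Pdia4*, *Pdia5*, *Pdia6*, *Txndc5*, *Txndc12* and *Tmx1*, which act in the endoplasmic reticulum (ER), and *Txndc9* and *Txn1*, which act in the cytosol. They were taken by name, through every probe set that the platform annotation pairs with exactly 1 of them, which gave 11 probe sets of the 21044 that name 1 gene (10 genes of 19452). *Txndc9* has 2 probe sets and each of the other genes has 1. The set was drawn up with the ratios of these arrays known, and with *Txndc9* in it because its ratios were high. The members were thus chosen by the same ratios that are described below, so their values are given as a description. No p is given for a member, and counts of members called in the fit over all probe sets stand only beside the share called among all.

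All RNA came from the cytoplasm of proliferating C2C12 (LKO1) cells, a mouse myoblast line that carries an empty lentiviral vector and grows in puromycin. Cells were kept sparse so that they did not differentiate, and no other treatment was given. The CUGBP1 immunoprecipitate (CUGBP1 IP) was made with the monoclonal antibody 3B1 and the control with normal IgG, and each group had 2 arrays (Affymetrix Mouse Gene 1.0 ST). LKO1 is a single stable derivative of C2C12, and no source states that replicates were separate cultures, so their spread may be technical. CUGBP1 is encoded by *Celf1* and binds GU-rich RNA, and the comparison asks which transcripts it associates with in muscle cells.

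Protein disulfide isomerases (PDIs) form, break and rearrange disulfide bonds in proteins that fold in the ER, through a pair of cysteines in a thioredoxin-like domain. Thioredoxin in the cytosol uses the same fold to keep protein cysteines reduced. A myoblast relies on the ER enzymes for the collagens, integrins and growth factor receptors that it makes.

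Values are linear intensities divided by the 5th percentile of the same array, so probe sets that detect no transcript lie near 1. Those of olfactory and vomeronasal receptor genes, set the background, at a 95th percentile of 1.23 and 1.29 with the CUGBP1 antibody and 1.09 and 1.16 with IgG. All 11 member probe sets were above that level on all 4 arrays. Of 8 myoblast markers 7 were above it on all 4 arrays, with *Cdh15* above it on 3. Of 12 markers of other cell types only *Krt8* was above it on all 4 arrays and 7 were above it on none. The summed intensity of those 12 markers was 14.0 and 15.1 for the antibody to CUGBP1, and 12.6 and 13.4 for IgG. Control IgG replicate 2 carried more signal than replicate 1, with 57.2% against 39.6% of the tested probe sets above background, and this touches every ratio below. What part that difference between the control arrays has in a given ratio was not tested.

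*Txndc9* stood far from the other members. Its protein is a cytosolic relative of the phosducin-like proteins and is known to bind the CCT chaperonin, which folds actin and tubulin. At probe set 10396064 the CUGBP1 IP arrays read 33.1 and 52.3 and the control IgG arrays 1.44 and 2.69. The signal-to-negative ratio, which divides the CUGBP1 IP mean by the control IgG mean, was 20.7, which ranked 2 among the 21044 probe sets. At probe set 10354079 it read 22.8 and 25.3 against 1.13 and 1.91, a ratio of 15.8 at rank 7. The groups lay far apart at either probe set, and the lower CUGBP1 IP array was above both control arrays. The log2 differences were 4.40 (SE 1.26) and 4.03 (SE 1.06). SE here and below comes from the spread fitted over probe sets of like intensity, not from a probe set's own replicates. The annotation pairs both probe sets with the same RefSeq transcript. Where their probes lie was not used here, so whether either also reads a near-identical copy was not tested.

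Among the ER members, *P4hb* had the highest ratio. It encodes PDI itself, which is also the beta subunit of the collagen prolyl 4-hydroxylase and a subunit of the microsomal triglyceride transfer protein. The CUGBP1 IP arrays read 31.5 and 42.3, and the controls 4.02 and 9.64. Neither control array reached the CUGBP1 IP arrays, and the ratio was 5.41 (rank 203, log2 difference 2.55, SE 1.36).

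**Figure D1:**
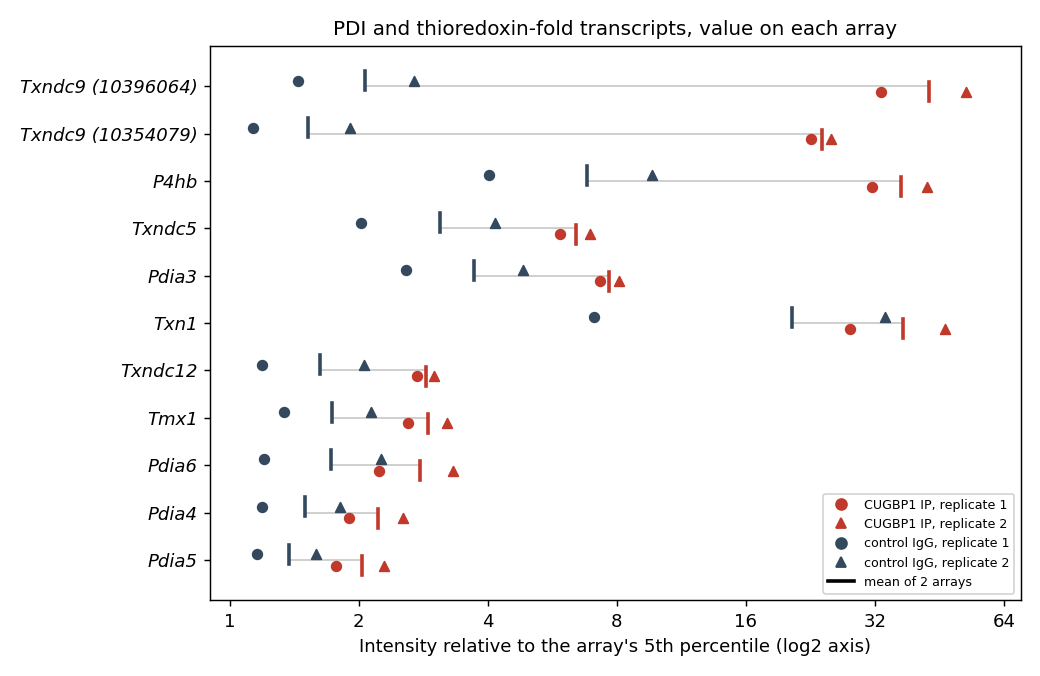
Intensity in units of each array's 5th percentile (log2 axis) for the 11 member probe sets, in order of their ratio, with circles for replicate 1, triangles for replicate 2 and short bars at the means of 2 arrays. Both *Txndc9* probe sets and *P4hb* show wide gaps between CUGBP1 IP and control IgG, while for *Txn1* and *Pdia6* replicate 1 of the CUGBP1 IP lies below replicate 2 of control IgG.

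The remaining PDIs of the ER lumen had ratios from 1.48 to 2.08. Values are given for the CUGBP1 IP first and then for control IgG. *Txndc5* (ERp46), a PDI with several thioredoxin-like domains, read 5.91 and 6.94 against 2.02 and 4.16, a ratio of 2.08. *Pdia3* (ERp57), which acts on glycoproteins held by calnexin and calreticulin, read 7.29 and 8.09 against 2.58 and 4.84, a ratio of 2.07. For these 2 transcripts the groups did not overlap, with log2 differences of 1.14 (SE 0.86) and 1.12 (SE 0.98).

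*Pdia6* (P5) read 2.23 and 3.32 against 1.20 and 2.25, a ratio of 1.61. Its groups overlapped, because the lower CUGBP1 IP array read just under the higher control array. *Pdia4* (ERp72) read 1.90 and 2.54 against 1.19 and 1.81, and *Pdia5* (PDIR) 1.77 and 2.29 against 1.16 and 1.59. Their groups did not overlap but came within 0.2 intensity units of each other, and both had a ratio of 1.48. The log2 differences of *Pdia6*, *Pdia4* and *Pdia5* were 0.73 (SE 0.42), 0.58 (SE 0.34) and 0.57 (SE 0.30).

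The smaller ER members were in the same range. *Txndc12*, a small thioredoxin-like protein of the ER lumen, read 2.74 and 3.00 against 1.19 and 2.06, a ratio of 1.77 (log2 difference 0.87, SE 0.42). *Tmx1*, a membrane-anchored thioredoxin-related protein, read 2.60 and 3.21 against 1.34 and 2.13, a ratio of 1.67 (log2 difference 0.77, SE 0.45). For neither did the groups overlap.

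*Txn1*, the cytosolic thioredoxin that serves peroxiredoxins and ribonucleotide reductase, depended most on which control array was used. It read 28.1 and 46.6 against 7.09 and 33.8, so that control IgG replicate 2 was above CUGBP1 IP replicate 1. Its ratio was 1.82 (log2 difference 1.22, SE 1.30). Against control IgG replicate 1 alone it was 5.26, and against control IgG replicate 2 alone 1.10. Without control IgG replicate 2, *Txn1* joined *Txndc9* and *P4hb* above the 95th percentile of the ratio, which was then 3.97.

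Every member read higher on control IgG replicate 2 than on replicate 1, by a factor of 1.37 for *Pdia5* to 4.77 for *Txn1*, with a median of 1.87 against 1.13 over all tested probe sets. Every member also read higher on CUGBP1 IP replicate 2 than on replicate 1, by a median factor of 1.29 against 1.11 over all tested probe sets. Only 7727 of all tested probe sets were above background on all 4 arrays, as every member was. Whether members differ from those in these factors was not tested. The ratio to control IgG replicate 1 alone ran from 1.75 to 29.7 and the ratio to control IgG replicate 2 alone from 1.10 to 15.9, so that all 11 were above 1 against either control (93.3% of all tested probe sets had a ratio above 1 to the mean of both). Between these values, *Txndc9* spanned 12.6 to 29.7 over its probe sets and did not meet the span of any other member. *P4hb* spanned 3.83 to 9.18 and met only that of *Txn1*. The spans of the other 8 transcripts all overlapped one another. The same 2 control arrays set the ends of every span, so this overlap does not decide their order. *Txndc5* and *Pdia3* were above *Pdia4* and *Pdia5* against replicate 1 alone (3.18 and 2.98 against 1.87 and 1.75). They were also above against replicate 2 alone (1.54 and 1.59 against 1.23 and 1.28). With quantile normalization the ratios of *Txndc5* and *Pdia3* were below those of *Pdia4* and *Pdia5*.

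**Figure D2:**
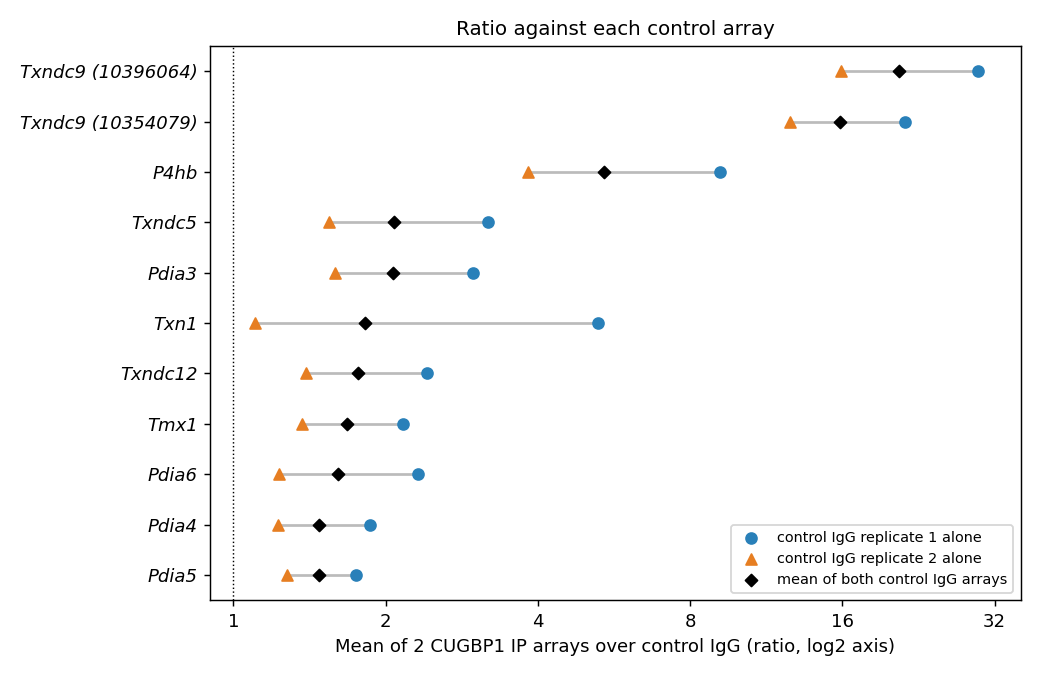
Mean of the 2 CUGBP1 IP arrays divided by control IgG replicate 1 alone (circles), by replicate 2 alone (triangles) and by the mean of both (diamonds), on a log2 axis with a dotted line at 1. *Txn1* has the widest span, 1.10 to 5.26, and the triangles lie left of the circles for all 11 probe sets.

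The median ratio of the 11 probe sets was 1.82, and it was 1.22 over all tested probe sets and 1.61 over the 7727 that were above background on all 4 arrays, as every member was. All 11 were above the median of all tested probe sets. Of the 11, 3 were in the top 5% of the ratio (a ratio above 2.57). The study used the same share to call transcripts associated with CUGBP1, but the value of 2.57 was computed here over the probe sets that name 1 gene, so it is not the cut-off the study used. In the top 5% were both probe sets of *Txndc9* and that of *P4hb*, and the other 8 lay between percentiles 72.3 and 90.7 with the values as deposited. The groups did not overlap, with the CUGBP1 IP above, at 9 of the 11, where 66.3% of all tested probe sets were so. limma called 2 of the 11 higher, both of *Txndc9*, where 1.95% of all tested probe sets were called, and none lower, where 0.138% were called. The ratios that chose the members come from the same contrast, so nothing is read from these counts.

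The direction of most members differed between quantile normalization and the other scalings. With arrays divided by their medians all 11 log2 differences stayed above 0 (51.7% of all tested probe sets did), at 0.29 for *Pdia5* to 4.13 for *Txndc9*. With quantile normalization 4 were above 0 (45.9% of all tested probe sets), namely 3.19 and 3.03 at the *Txndc9* probe sets, 1.04 for *P4hb* and 0.09 for *Txndc12*. The other 7 were below 0, from -0.04 for *Pdia5* to -0.27 for *Txndc5* and -0.41 for *Pdia3*. The ratios of those 7 then ranked between percentiles 4.0 (*Pdia3*) and 43.1 (*Pdia5*), and that of *Txndc12* at 76.6. The median of all tested probe sets was 0.29 as deposited, 0.02 with median scaling and -0.01 with quantile normalization. Quantile normalization gives all 4 arrays the same distribution. As deposited, the 95th percentiles of the arrays were 9.37 and 13.0 for the CUGBP1 IP and 2.36 and 5.96 for control IgG. Whether a common distribution suits these arrays was not tested.

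**Figure D3:**
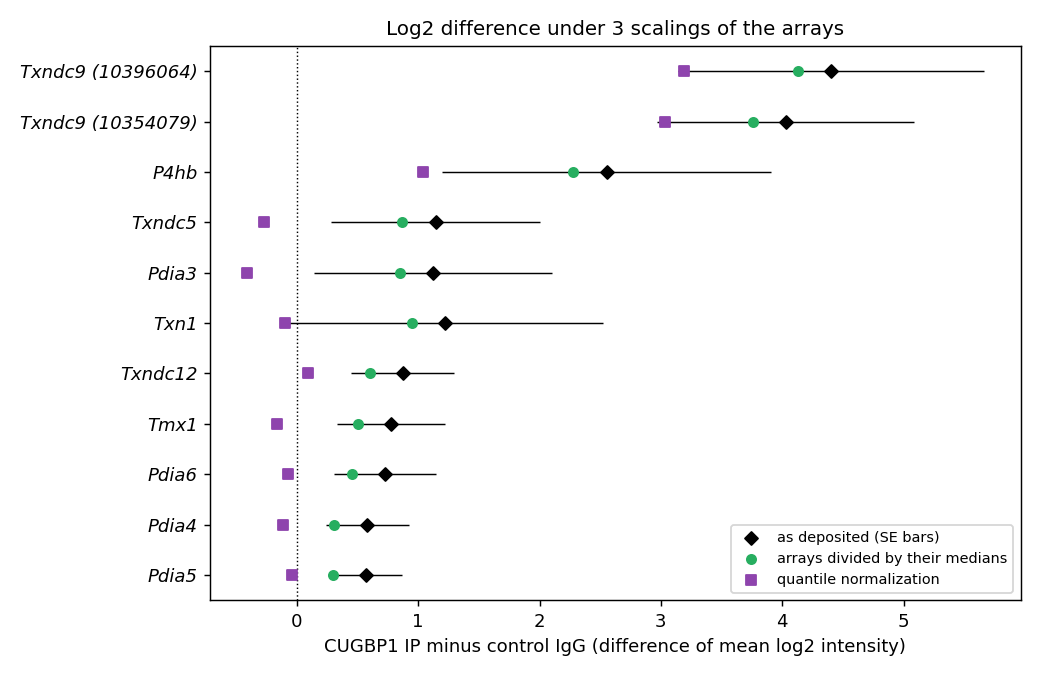
Difference of mean log2 intensity, CUGBP1 IP minus control IgG, as deposited (diamonds, bars are the moderated SE), with arrays divided by their medians (circles) and with quantile normalization (squares). The bars follow intensity and do not show the replicate spread of the single probe set. With quantile normalization the *Txndc9* and *P4hb* squares stay at 1.04 or above and the rest lie between -0.41 and 0.09.

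Other transcripts of disulfide formation, ER folding and thioredoxin reduction were read in 6 further lists, which hold 112 measured genes. limma called 0 of the 112 at an adjusted p under 0.05, where 1.94% of all genes were called higher and 0.134% lower. The lowest limma adjusted p was 0.0705, for *Txnip*. At an unadjusted p under 0.05, 37 were higher (33.0%, where 28.6% of all tested probe sets were) and 0 lower. The 37 include genes that were above background on no array, among them *Txndc16*, *Mttp*, *Txnrd3*, *Txndc8* and *Pdc*. The direction among the 112 depended on the scaling. With arrays divided by their medians 28 were higher and 3 lower, where 3746 and 1716 of the 21044 tested probe sets were. With quantile normalization 5 were higher and 10 lower, where 1610 and 1239 of the 21044 were. Of the 112, 9 were in the top 5% of the ratio (8.04%, where 4.97% of all genes were), and 0 had a ratio above that of *P4hb*. Their median ratio was 1.57, and it was 1.22 over all genes. All genes include many that were not detected. For the 7727 tested probe sets that passed background on each of the 4 arrays, the median was 1.61 and the 95th percentile 4.01. The 112 also include genes that were not above background on all 4 arrays, so their median of 1.57 is not comparable with 1.61. Whether the 112 differ from detected transcripts in ratio was not tested, so no enrichment is read from these shares. With arrays divided by their medians limma called 10 of the 112 higher, where 7.02% of all tested probe sets were called, and the 10 included *Txnip*, *Tmx3*, *Atf6b* and *Ern1*.

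Of 18 other PDI family genes, 0 were called, 6 were higher at an unadjusted p under 0.05 and 0 were in the top 5%. Among all 19452 genes, 5615 were higher at that unadjusted p, and this share stands beside the count of each list below. The highest ratio was 2.47, for *Dnajc10*, an ER reductase with a J domain, which read 6.03 and 8.19 against 1.75 and 4.00 (limma adjusted p = 0.220). *Tmx3*, a membrane-bound relative of *Tmx1*, had 1.86 (limma adjusted p = 0.0979). In this list 7 genes, among them *Pdia2*, *Pdilt*, *Casq1* and *Agr2*, were above background on no array. The median ratio was 1.32.

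Of 15 oxidases and enzyme partners of PDIs, 0 were called, 5 were higher at an unadjusted p under 0.05 and *Vkorc1l1* was in the top 5%. This paralogue of vitamin K epoxide reductase read 9.23 and 11.2 against 2.72 and 4.06, a ratio of 3.01 (limma adjusted p = 0.238). The catalytic partners of *P4hb* in collagen hydroxylation had lower ratios than *P4hb*, with 1.73 for *P4ha1*, 1.36 for *P4ha2* and 1.75 for *P4ha3* (limma adjusted p = 0.176, 0.187 and 0.110). *Ero1a*, the oxidase that recharges PDI, had 1.57 and the ER peroxiredoxin *Prdx4* 1.43 (limma adjusted p = 0.189 and 0.393). *Selenof*, a selenoprotein with a thioredoxin fold, read 19.2 and 32.4 against 7.31 and 20.4, and its groups overlapped.

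Of 35 measured ER chaperones and glycoprotein folding factors, 0 were called and 9 were higher at an unadjusted p under 0.05. The 2 in the top 5% were *Canx* and *Calr*, which encode the lectin chaperones that hand glycoproteins to the *Pdia3* product. *Canx* read 18.0 and 17.1 against 2.94 and 5.75, a ratio of 4.04, and *Calr* 12.3 and 17.2 against 2.97 and 5.88, a ratio of 3.33 (limma adjusted p = 0.208 and 0.248). For neither did the groups overlap, and *Pdia3* itself had 2.07. *Hspa5* (BiP), the Hsp70 of the ER lumen, had 2.24 (limma adjusted p = 0.201).

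Of 16 measured regulators of the unfolded protein response, 0 were called and 8 were higher at an unadjusted p under 0.05. *Atf4*, a stress-induced transcription factor, and *Derl2*, which acts in the removal of misfolded ER proteins, were in the top 5%. *Atf4* read 20.2 and 23.0 against 2.44 and 7.27, a ratio of 4.45, and *Derl2* had 3.46 (limma adjusted p = 0.186 and 0.115).

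Of 24 measured genes of the cytosolic and mitochondrial thioredoxin system, 0 were called and 7 were higher at an unadjusted p under 0.05. *Txnip*, which encodes the inhibitor that binds thioredoxin, read 4.64 and 3.40 against 1.33 and 1.55, a ratio of 2.79. It was in the top 5% with *Txnl1* (2.73) and *Glrx5* (2.65), whose limma adjusted p-values were 0.134 and 0.244. *Txnrd1*, the reductase that restores thioredoxin, had 1.66 (limma adjusted p = 0.203). The mitochondrial thioredoxin *Txn2* read 13.6 and 32.4 against 3.73 and 15.2, and as for *Txn1* the groups overlapped, with a ratio of 6.16 to control IgG replicate 1 alone and 1.51 to replicate 2 alone.

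Of the 4 phosducin-like genes, to which *Txndc9* is related, 0 were called and 2, *Pdcl* and *Pdc*, were higher at an unadjusted p under 0.05. *Pdcl* was in the top 5% (2.73, limma adjusted p = 0.103), *Pdcl3* had 1.76 (limma adjusted p = 0.231), and *Pdc* and *Pdcl2* were above background on no array.

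**Figure D4:**
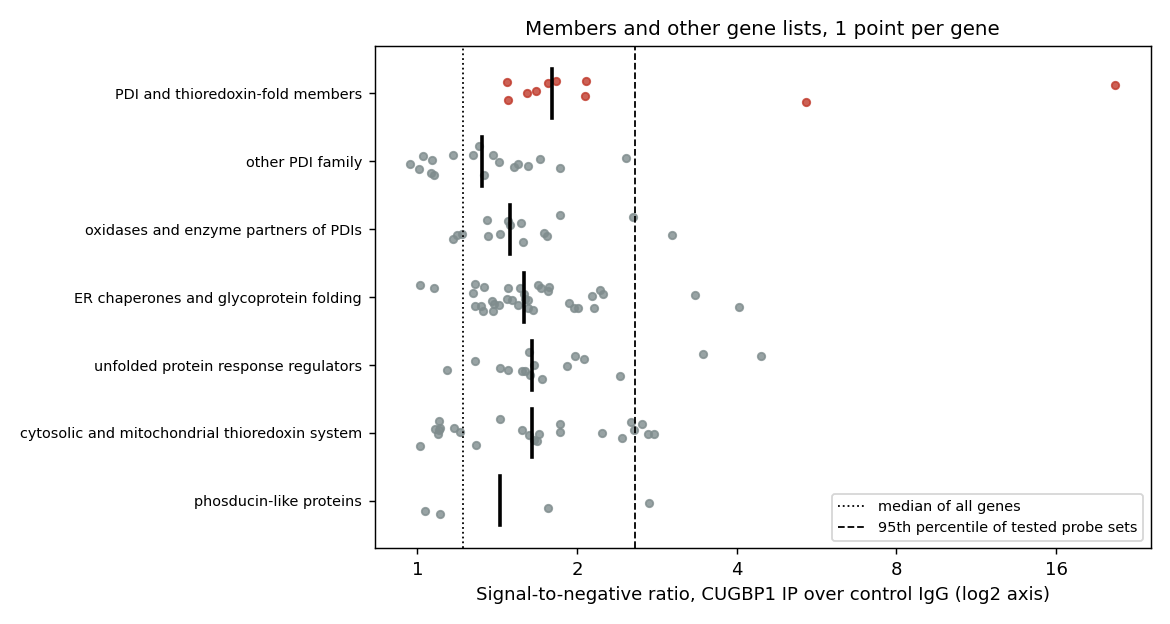
Signal-to-negative ratio (log2 axis) of the 10 members and of 6 other lists, 1 point per gene at the probe set with the highest mean intensity, with black bars at list medians. The dotted line is the median of all genes, 1.22, and the dashed line the 95th percentile of tested probe sets, 2.57. *Txndc9* (20.7) and *P4hb* (5.41) lie right of every point in the other lists.

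Some transcripts outside these lists had nearly the same readings as *Txndc9* or *P4hb* on the 4 arrays. Likeness was the Euclidean distance between log2 values over the 4 arrays, with 1 probe set per gene. Nearest to *Txndc9* were *Net1* (distance 0.35, ratio 16.7), *Ei24* (0.45, 15.1), *Slc25a1* (0.62, 16.1), *Bub3* (0.71, 14.6) and *Hoxc10* (0.76, 13.4). Nearest to *P4hb* were *Scd1* (0.38, ratio 4.74), *Tspan31* (0.39, 5.62), *Ldha* (0.39, 5.76), *Cited2* (0.40, 4.16) and *Tmem64* (0.44, 4.33).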

How the data were processed

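Intensities of 4 arrays were analysed, 2 of CUGBP1 IP and 2 of control IgG, each hybridized with RNA of 1 immunoprecipitate. The authors divided each linear probe set intensity by the 5th percentile of its array before they deposited it. No source used here names the summarisation software or a background correction. A ratio of dim probe sets is compressed towards 1, because the floor was not subtracted, and differences in labelled RNA between arrays remain. No depth applies to arrays, and the 2 arrays per group limit the precision.

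Samples were grouped by their titles. The platform annotation paired 21044 of 25175 probe sets with 1 gene, and 20959 symbols were updated through gene identifiers (RefSeq, GRCm38.p6, names only). The signal-to-negative ratio, by which the study ranked its transcripts without a test, was recomputed here, and log2 values were fitted with limma 3.58.1 in R 4.3.3 (lmFit, eBayes with an intensity trend, two-sided, 2 residual degrees of freedom), with Benjamini-Hochberg adjustment over all 21044 probe sets and a threshold of 0.05. SE is the moderated standard error of this fit. In effect it was set by the intensity trend alone, so probe sets of like mean intensity have like SE whatever their own replicates read. The fit was tested on simulated data. Adjusted p-values are those of limma throughout. They rest on the same trend, which pools the spread between these arrays over probe sets, and cover no variation beyond these arrays. Background was the 95th percentile of 1198 receptor probe sets per array. In the further lists the probe set with the highest mean stands for its gene.

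The members and lists were chosen with earlier results of these data known. The text names all members, in each further list any called gene, the gene with the highest ratio and the one with the highest mean intensity, preset partners of the members, and the 5 nearest patterns of *Txndc9* and *P4hb*. Other genes were named after their values were seen (*P4ha3*, *Derl2*, *Txnl1*, *Glrx5*, *Tmx3*, *Atf6b*, *Ern1*, *Pdc*, *Pdcl2* and dim PDI genes). Of 116 listed names 112 were measured. Alternatives were 2 other scalings, an offset of 1, a filter on dim probe sets, no trend, a replicate block, geometric means and leaving out each array.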

Additional observations from a re-analysis of the deposited data

How the results depend on the processing

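All 3 probe sets of *Txndc9* and *P4hb* stayed in the top 5% of the ratio under each scaling, offset, kind of mean and array left out, and the count was 4 without control IgG replicate 2, where *Txn1* joined them. The median ratio of the members was 1.82, and it fell to 0.944 with quantile normalization, where 7 of the 11 log2 differences were below 0. With an array left out that median ran from 1.39 (without control IgG replicate 1) to 2.98 (without control IgG replicate 2). Over all tested probe sets limma called 411 higher and 29 lower. The higher calls were 1477 with arrays divided by their medians, 763 with an offset of 1 and 0 without the intensity trend (4757 at an unadjusted p under 0.05). The lower calls were 51 with median scaling, 12 with quantile normalization, 0 among probe sets above background on at least 2 arrays and 0 without the trend (0 at an unadjusted p under 0.05 in either). With any array left out, 0 were called higher (955 to 6022 at an unadjusted p under 0.05) and 0 lower (63 to 189). Such a fit has 1 residual degree of freedom and a lone array that is assumed to vary like the other group, so the loss says nothing about any 1 array. In the 6 further lists 10 genes were called higher with median scaling and 1 (*Txnip*, limma adjusted p = 0.0370) with an offset of 1, against 0 as reported.

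The groups share replicate numbers, but nothing says that a number marks a shared lysate. Replicate 1 minus replicate 2 log2 differences correlated between CUGBP1 IP and control IgG with Pearson's r = 0.639 across probe sets, which are not independent. With the replicate number as a block limma called 11809 probe sets higher (56.1%) and 40 lower, with 79 genes of the further lists among those higher. This fit has 1 residual degree of freedom.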
